A study of Mus musculus with 2 samples.

Results

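Described here are 36 genes of glycolysis and of the response to low oxygen, out of 32285 genes in the count matrices, followed through the cell classes of injured mouse quadriceps muscle 2 h and 9 h after the injury. They were taken as every matrix row that carries one of the 36 gene symbols. Aldoa stands on more than 1 row, and the row with ENSMUSG00000030695 was used because the other held 0 UMIs. The mice were C57BL/6J wild type (WT). Their muscle was injured with an intramuscular dose of BaCl2 (100 µl at 1.2% w/v), which destroys muscle fibres while leaving the stem cells that rebuild them. Mononuclear cells were cryo-preserved, then read with droplet single-cell RNA sequencing that counts the 3-prime ends of transcripts. There was 1 library for each time and no uninjured muscle, and the number of mice behind a library is not stated in the labels. No difference between times could therefore be checked against replicates, no p-value is given, and every interval covers counting error only.

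Glycolysis splits glucose into pyruvate and yields ATP without oxygen. Upper glycolysis spends ATP to trap and cleave the sugar, lower glycolysis recovers ATP and NADH, and lactate dehydrogenase turns pyruvate into lactate so that the pathway can run on. HIF is a transcription factor made of an oxygen-labile alpha subunit (Hif1a) and a stable beta subunit (Arnt), and prolyl hydroxylases (Egln genes) mark the alpha subunit for destruction while oxygen is present. When oxygen falls, HIF switches on glucose transporters, glycolytic enzymes, mitophagy receptors and collagen hydroxylases. Neutrophils hold few mitochondria and live largely on glycolysis. HIF activity is set mainly at the protein level, which RNA counts do not show.

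After filtering, 4900 cells (median depth 4519 UMIs, unique molecules) remained at 2 h and 8147 cells (median depth 2327 UMIs) at 9 h. Clusters were named from marker genes, and class names end in "-like" because the cells were not sorted. FAP-like cells (fibro-adipogenic progenitors, the mesenchymal cells between fibres) numbered 1995 and then 2377, neutrophil-like cells 1630 and 4296, endothelial-like cells 284 and 540, and monocyte-like cells 174 and 359. Resident macrophage-like cells numbered 321 and 242, dendritic-like cells 143 and 110. A level is the UMIs of a gene in all cells of a class at 1 time, per 1000000 UMIs of that class (CPM), and it is compared within a gene, not between genes. The bracket after a value is its 95% interval, and pairs of values give 2 h first and 9 h second. A class's share of a gene's UMIs is to be read against its part of all UMIs. FAP-like cells held 16015157 of 27598413 UMIs of kept cells at 2 h and 19584208 of 35127600 at 9 h. Neutrophil-like cells held 3504869 and 8264318 of them. In FAP-like cells, and in most neutrophil-like cells, each cluster came almost wholly from 1 library, so time, library and cluster cannot be told apart there. At a finer clustering (Leiden resolution 2) the monocyte-like cells too parted mostly by library (11 and 326 cells in one cluster, 163 and 34 in the other), as did the endothelial-like cells (3 and 302, 245 and 49, 36 and 225 cells), so a ratio within these classes also compares partly different clusters. Of the barcodes of kept cells, 12 occurred in both libraries. RNA of muscle fibres was low: 10 fibre markers summed to between 5.29 and 99.4 CPM over these 6 classes, and the muscle forms Eno3 and Pgam2 stayed at or below 8.22 and 2.2 CPM.

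The promoters of these genes were searched for ACGTG, 1 form of the core letters that HIF binds, on either strand. The search covered the 250 bases before each annotated start (RefSeq, GRCm38.p6). Other forms of the core, such as GCGTG, were not searched. A promoter was found in RefSeq for 33 of the 36 genes, and 19 of the 33 (57.6%) held ACGTG in at least 1 window. Over all 27025 genes the share was 18.5% (4998 genes), and over all 32851 windows it was 16.6%. The longer CACGTG, which holds ACGTG on both strands and is also the E-box of other factors, stood in 6 of the 33 genes (18.2%) against 6.86% of all genes. The 36 genes were listed as glycolysis genes and HIF targets, so these contrasts describe the list and are not a result of these cells. The 4 promoters shown belong to genes that the results turn on: Ldha, far higher in FAP-like cells at 9 h, Pgk1, higher in 3 classes, Slc2a1, higher in 2 classes, and P4ha1, lower in FAP-like cells. Capitals mark ACGTG and its reverse complement CACGT, which overlap in CACGTG. All 4 are on the plus strand, at chr7:46845554-46845803 (Ldha), chrX:106186850-106187099 (Pgk1), chr4:119108495-119108744 (Slc2a1) and chr10:59323046-59323295 (P4ha1).
Ldha: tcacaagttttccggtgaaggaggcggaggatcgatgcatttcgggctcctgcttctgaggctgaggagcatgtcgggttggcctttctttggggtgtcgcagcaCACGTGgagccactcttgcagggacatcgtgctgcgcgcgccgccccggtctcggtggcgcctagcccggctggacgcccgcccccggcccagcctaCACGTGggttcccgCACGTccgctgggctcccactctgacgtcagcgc
Pgk1: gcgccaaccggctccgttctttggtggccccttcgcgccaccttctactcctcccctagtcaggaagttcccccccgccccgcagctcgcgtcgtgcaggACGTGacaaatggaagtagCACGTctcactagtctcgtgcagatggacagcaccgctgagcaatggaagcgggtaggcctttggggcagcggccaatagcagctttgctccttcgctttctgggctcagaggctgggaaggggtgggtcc
Slc2a1: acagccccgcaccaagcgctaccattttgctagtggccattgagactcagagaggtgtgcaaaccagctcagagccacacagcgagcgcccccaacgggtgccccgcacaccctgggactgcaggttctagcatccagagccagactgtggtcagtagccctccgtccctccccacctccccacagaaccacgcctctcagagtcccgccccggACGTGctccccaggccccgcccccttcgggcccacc
P4ha1: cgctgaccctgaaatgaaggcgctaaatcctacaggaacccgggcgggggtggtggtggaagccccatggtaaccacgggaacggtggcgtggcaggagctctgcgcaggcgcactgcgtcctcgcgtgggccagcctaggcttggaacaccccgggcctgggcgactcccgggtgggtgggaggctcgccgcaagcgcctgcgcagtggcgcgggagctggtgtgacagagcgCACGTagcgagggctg
Counting both strands, so that each CACGTG counts as 2 matches, the Ldha window held 5 matches, the Pgk1 window 2, and the Slc2a1 and P4ha1 windows 1 each. The other RefSeq window of Ldha held 0 matches to ACGTG, and so did the window of Adm, where other forms of the core were not counted. Each window of Gapdh, Eno1 and Pfkp, which were also called in some class, held 0 as well. ACGTG thus stood before some genes that were higher at 9 h, not before others, and before P4ha1, which was lower. A match is a run of letters and does not show that HIF was bound.

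A gene is called higher or lower at 9 h when its log2 ratio, with 10 CPM added to each level, reached 1 or -1, a 2-fold difference. It is called measured in a class when it had at least 100 UMIs over both libraries. In FAP-like cells 4 of the 36 genes were higher (Pgk1, Pgam1, Ldha and Adm) and 4 lower (Pfkp, Bnip3l, P4ha1 and Ndrg1), while 28 lay between. Each direction held 12.9% of the 31 measured genes, against 7.41% higher and 9.3% lower among all 10456 genes measured in that class. The median log2 ratio was 0.18 over the 31 genes and 0.01 over all genes. In resident macrophage-like cells 6 genes were higher (Gapdh, Pgk1, Pgam1, Eno1, Pkm and Hif1a), 27.3% of 22 measured genes against 4.02% of all genes. Pfkfb3 and Slc2a3 were lower there, of which only Pfkfb3 was measured (4.55% against 8.05% of all genes), and 28 genes lay between. The medians were 0.55 and 0.02. Sums over other marker lists differed between the times in these cells. Platelet-list genes, 3 of 6 detected, summed to 2670 and 8300 CPM, FAP-list genes to 6330 and 1320 CPM and dendritic-list genes to 33700 and 21400 CPM. The class's own markers stood at 10200 and 8380 CPM. The platelet list holds Pf4 and the dendritic list Cd74 and H2 genes, which macrophages can also express, so those 2 sums do not measure other cells. The part of RNA from other cells in the result was not tested. In endothelial-like cells 7 genes were higher (Gapdh, Pgk1, Pgam1, Pkm, Slc2a1, Hif1a and Egln3) and 29 lay between. The 6 measured ones were 25.0% of 24 measured genes, against 6.77% of all genes. These levels include any RNA carried over from other cells, and its part in the calls was not tested. None was lower in endothelial-like cells, against 8.58% of all genes, and the medians were 0.09 and 0.04.

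In the remaining classes the counts lay near the background. Neutrophil-like cells had 1 gene higher (Hk3), 1 lower (Slc2a3) and 34 between. Each was 3.85% of 26 measured genes, against 4.79% higher and 5.88% lower among all genes, and the medians were -0.33 and -0.07. In monocyte-like cells Slc2a1 and Egln3 were higher, 0 genes were lower and 34 lay between. Slc2a1 was 5.56% of 18 measured genes, against 4.44% higher and 6.25% lower among all genes, and the medians were 0.05 and -0.08. In dendritic-like cells Ndrg1 and Slc2a3 were lower, Slc16a3 was higher and 33 lay between. Only Ndrg1 of these was measured, 5.88% of 17 measured genes against 5.54% lower and 5.68% higher among all genes, and the medians were -0.27 and -0.01.

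The 18 enzyme genes from hexokinase to lactate dehydrogenase can also be summed. The sum was 1885 CPM [1863, 1906] and 2780 CPM [2757, 2803] in FAP-like cells and 2303 CPM [2241, 2366] and 4732 CPM [4624, 4841] in resident macrophage-like cells. It was 1828 CPM [1749, 1909] and 2791 CPM [2709, 2874] in endothelial-like cells and 3928 CPM [3823, 4035] and 5143 CPM [5046, 5241] in monocyte-like cells. In those 4 classes the summed level was higher at 9 h, beyond counting error. In endothelial-like cells summed neutrophil markers were 5770 and 14100 CPM, erythroid markers 72.2 and 1930 CPM and FAP markers 10500 and 5110 CPM. If all their S100a8 were carried-over neutrophil RNA, it would bring 145 and 393 CPM of the endothelial-like sum, and FAP RNA measured the same way from Dcn would bring 244 and 357 CPM. The part of erythroid RNA was not tested. The sum over the 18 enzyme genes was lower at 9 h in neutrophil-like cells, with 3644 CPM [3581, 3708] and 3194 CPM [3156, 3233]. So it was in dendritic-like cells, with 3196 CPM [3101, 3293] and 2719 CPM [2612, 2829].

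**Figure D1:**
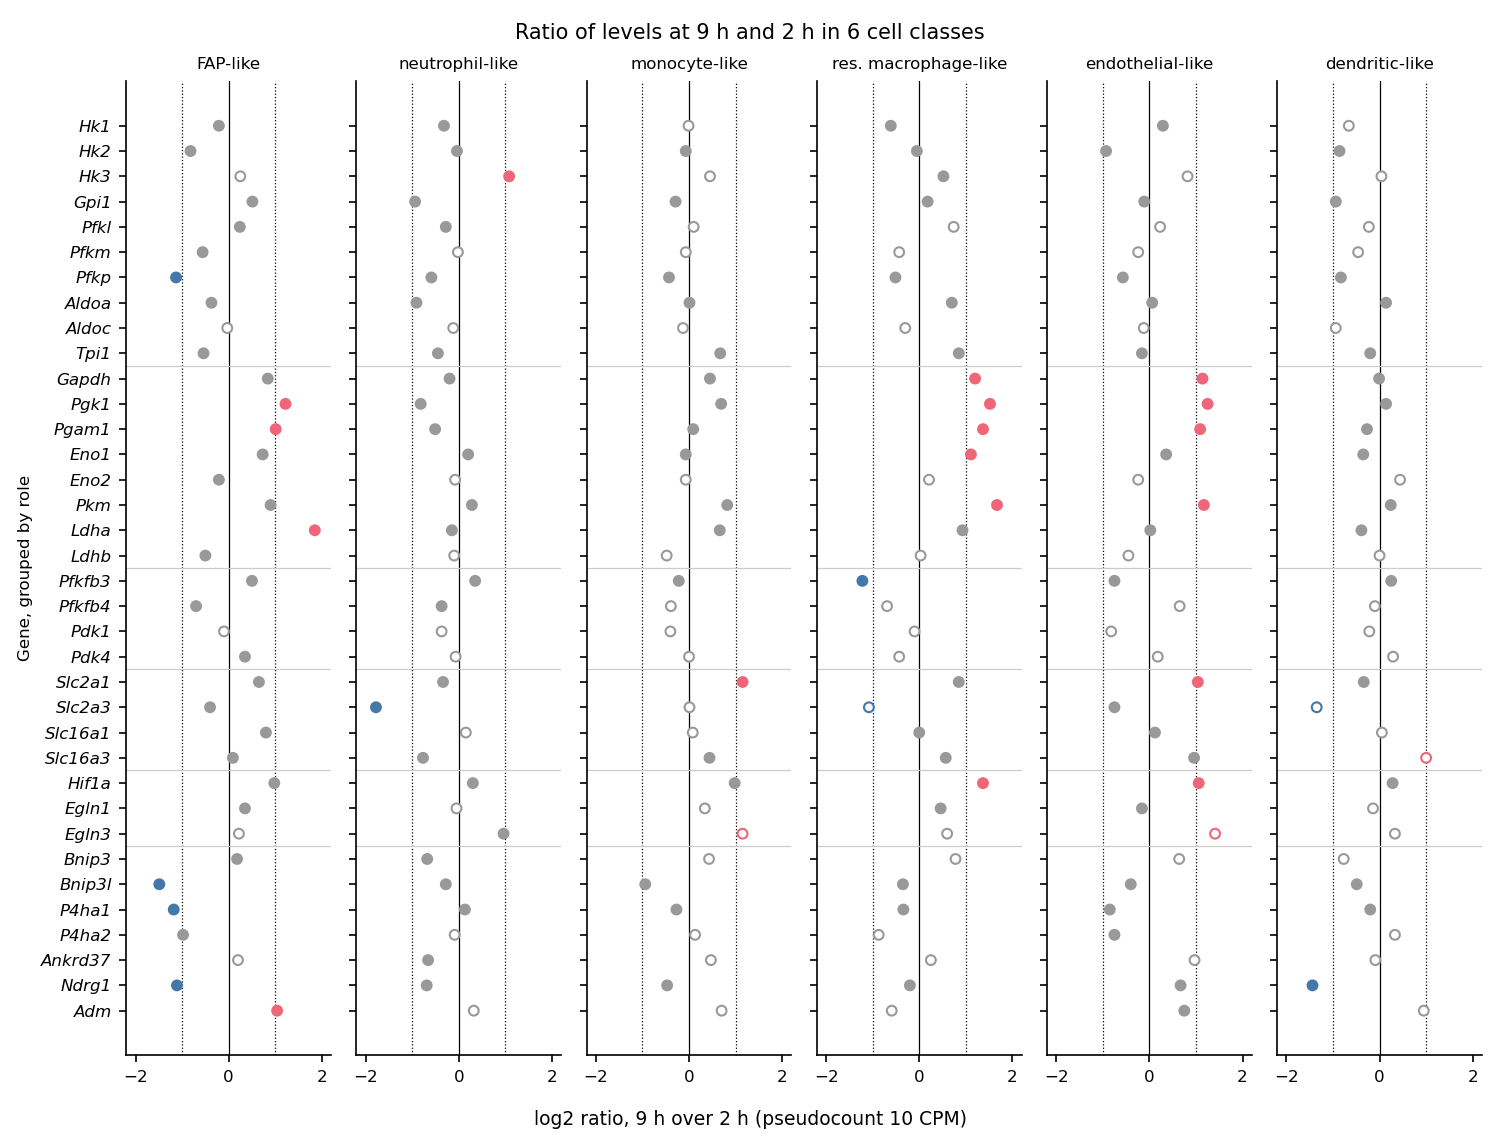
Log2 ratio of the level at 9 h over that at 2 h (x axis, with 10 CPM added to each level) for the 36 genes (y axis, grouped by role) in 6 cell classes. Red points reached 1 and blue points -1 (dotted lines), and open points had under 100 UMIs over both libraries. Resident macrophage-like and endothelial-like cells have 6 and 7 red points, most of them in lower glycolysis, and neutrophil-like cells have 1 red and 1 blue point.

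The lactate transporters divided neutrophil-like from FAP-like cells. Slc16a3 encodes MCT4, the carrier that exports lactate from glycolytic cells, and neutrophil-like cells held 86.0% [85.1, 86.9] and 84.4% [83.6, 85.2] of its UMIs. Their level was 1479 CPM [1439, 1520] at 2 h and 866 CPM [846, 886] at 9 h, 1.71-fold [1.65, 1.77] lower, and in FAP-like cells the Slc16a3 level was 18.5 and 20.4 CPM. S100a8, a neutrophil transcript, stood at 585 and 923 CPM in FAP-like cells and at 62600 and 50100 CPM in neutrophil-like cells. If all S100a8 of FAP-like cells were carried-over neutrophil RNA, that RNA would bring 13.8 and 16.0 CPM of Slc16a3, most of the level found there. With each cell thinned to 1000 UMIs, 69.6% [67.2, 71.9] and 50.2% [48.6, 51.8] of neutrophil-like cells had an Slc16a3 UMI, against 1.52% and 1.98% of FAP-like cells. Unthinned, the shares were 85.5% and 65.1% in neutrophil-like and 6.02% and 7.78% in FAP-like cells. Thinning left out 94 and 324 neutrophil-like and 22 and 52 FAP-like cells, and median depths before thinning were 2013 and 1657.5 UMIs in neutrophil-like and 7956 and 8224 UMIs in FAP-like cells.

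FAP-like cells carried the other lactate transporter. Slc16a1 encodes MCT1, which moves lactate and pyruvate in either direction, and FAP-like cells held 79.5% [77.3, 81.7] and 88.8% [87.5, 89.9] of its UMIs. Their level was 66.2 CPM [62.3, 70.3] and 123 CPM [118, 128], a ratio of 1.86 [1.73, 2.0], and that of neutrophil-like cells 0.571 and 1.69 CPM. Of the UMIs of both carriers together, Slc16a1 made 78.1% [75.8, 80.3] and 85.8% [84.4, 87.1] in FAP-like cells and 0.0386% [0.00467, 0.139] and 0.195% [0.107, 0.327] in neutrophil-like cells. Monocyte-like cells stood nearer to neutrophil-like cells, with Slc16a3 making 87.2% and 89.6%. Their Slc16a3 level was 151 CPM [131, 173] and 208 CPM [189, 229], and the S100a8 measure of carry-over gave 32.8 and 53.2 CPM. In endothelial-like cells Slc16a3 was 76.7 and 159 CPM, where the same measure gave 58.9 and 107 CPM. In dendritic-like cells Slc16a3 was 26.9 and 63.9 CPM on 36 and 57 UMIs, with 11.6 and 29.6 CPM by that measure. The part of neutrophil RNA in these 3 classes was not tested.

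Slc2a3 encodes GLUT3, a high-affinity glucose carrier, and neutrophil-like cells held 84.4% [83.2, 85.6] and 85.8% [84.3, 87.2] of its UMIs. Its level there was 836 CPM [806, 867] at 2 h and 237 CPM [226, 247] at 9 h, 3.54-fold [3.34, 3.75] lower. Slc2a3 was among the variable genes used for clustering and among the 10 leading genes of neutrophil-like clusters 1 and 8, so the clusters are not independent of it. Cluster 1 was the neutrophil-like cluster with many cells at both times (1052 and 620), and there the Slc2a3 level was 863 and 731 CPM, 1.18-fold [1.08, 1.29] lower. In clusters 0, 5, 6 and 12, found almost only at 9 h, it was 190, 186, 99.9 and 149 CPM, all below both levels of cluster 1. Slc16a3 behaved alike, at 1482 and 1287 CPM in cluster 1 and at 895, 917, 600 and 715 CPM in those 4 clusters. Slc2a1 encodes GLUT1, the basal glucose carrier of most cells, and in neutrophil-like cells it was 276 CPM [259, 294] and 216 CPM [206, 226]. Slc2a3 made 75.2% [73.8, 76.5] and 52.3% [50.7, 53.9] of the UMIs of both glucose carriers in neutrophil-like cells.

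Slc2a1 was higher at 9 h in monocyte-like cells, with 87.1 CPM [72.1, 104] and 205 CPM [186, 226], a ratio of 2.36 [1.92, 2.92], with 6.12 and 13.2 CPM by the S100a8 measure. In endothelial-like cells Slc2a1 was 26.2 CPM [17.5, 37.6] and 64.6 CPM [52.7, 78.3] on 29 and 103 UMIs, a ratio of 2.47 [1.62, 3.87], with 11 and 26.5 CPM by the S100a8 measure. Ratios short of the call were found in resident macrophage-like cells (52.8 and 103 CPM, 1.95 [1.53, 2.49]) and FAP-like cells (29.1 and 51.5 CPM, 1.77 [1.58, 1.98]). In dendritic-like cells the Slc2a1 intervals overlapped, at 63.6 CPM [50.8, 78.6] and 48.2 CPM [34.9, 64.9]. In the other compared classes Slc2a3 was lower than in neutrophil-like cells, at 52.3 and 27.0 CPM (58 and 43 UMIs) in endothelial-like, 47.1 and 12.3 CPM (63 and 11 UMIs) in dendritic-like, 18.0 and 3.24 CPM (41 and 5 UMIs) in resident macrophage-like, 17.0 and 10.4 CPM in FAP-like and 11.8 and 12 CPM in monocyte-like cells. The S100a8 measure gave 33.3 and 29.1 CPM in endothelial-like, 6.56 and 8.09 CPM in dendritic-like, 9.09 and 3.27 CPM in resident macrophage-like, 7.82 and 4.36 CPM in FAP-like and 18.5 and 14.5 CPM in monocyte-like cells. This exceeded the level itself in monocyte-like cells at both times, and in endothelial-like and resident macrophage-like cells at 9 h. T or NK-like cells (103 and 37 cells) had 96.3 and 64.2 CPM on 48 and 10 UMIs, while their own markers summed to 2410 and 925 CPM and neutrophil markers to 5340 and 12100 CPM. Slc2a1 made a larger share of the UMIs of both glucose carriers at 9 h than at 2 h in each of the 6 classes, with 63.1% and 83.2% in FAP-like, 33.3% and 70.5% in endothelial-like and 74.5% and 97.0% in resident macrophage-like cells. In the endothelial-like share, most or all of the Slc2a3 level lay within what the S100a8 measure gave.

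**Figure D2:**
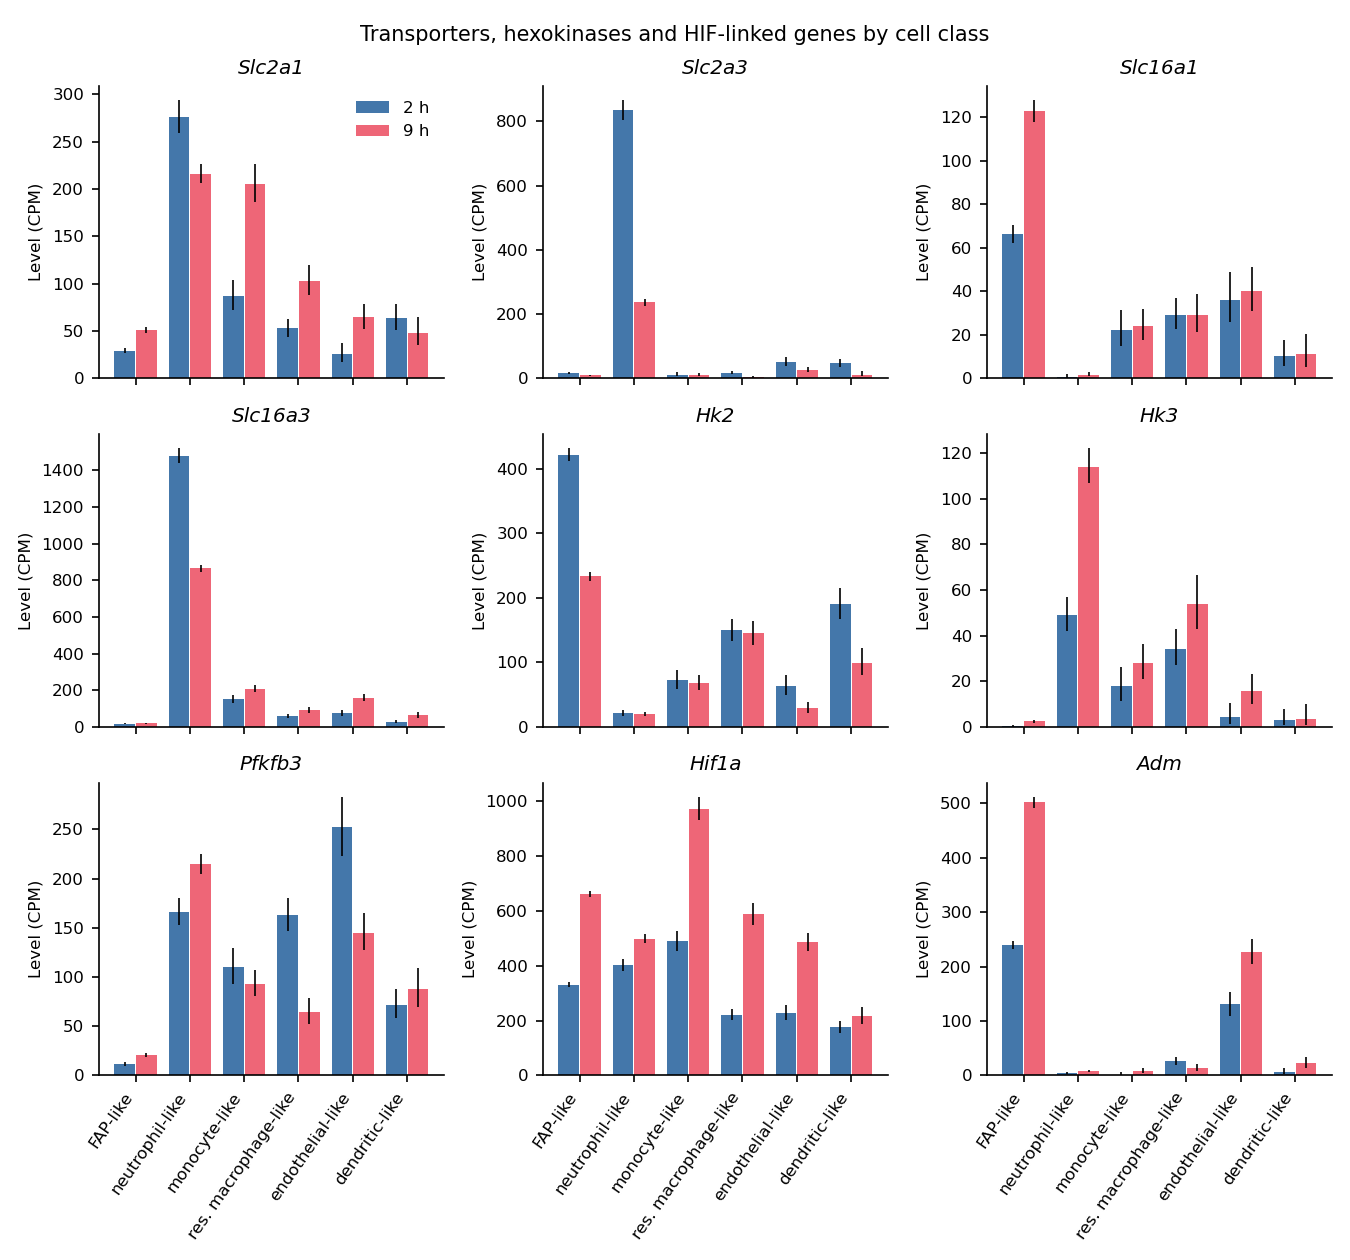
Levels (CPM, y axes from 0) of 9 genes in 6 cell classes (x axis) at 2 h (blue) and 9 h (red), 1 library per bar, with exact 95% Poisson intervals that cover counting error only. Slc16a3 and Slc2a3 stand highest in neutrophil-like cells, and Slc16a1, Hk2 and Adm in FAP-like cells. The Hif1a bar is taller at 9 h than at 2 h in each class shown, with carried-over RNA not removed.

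Hexokinase traps glucose in the cell by phosphorylation, and its 3 genes were divided by class. Hk2, the inducible form that binds mitochondria, made 94.1% [93.5, 94.6] and 90.8% [90.0, 91.6] of hexokinase UMIs in FAP-like cells, which held 84.5% and 85.1% of all Hk2 UMIs. Its FAP-like level was 422 CPM [412, 432] and 234 CPM [227, 241], 1.8-fold [1.74, 1.87] lower. Hk3, the form of myeloid cells, made 44.2% [39.2, 49.3] and 69.3% [66.8, 71.7] of hexokinase UMIs in neutrophil-like cells. Hk3 was the 1 gene of the 36 called higher in neutrophil-like cells, with 48.8 CPM [41.8, 56.7] and 114 CPM [107, 122], a ratio of 2.35 [1.99, 2.78]. Within cluster 1 it was 44.2 and 63.4 CPM, a ratio of 1.43 [1.03, 2.0], and in clusters 0, 5, 6 and 12 it was 108, 100, 180 and 117 CPM. Hk3 was also among the variable genes used for clustering. A finer clustering gave a log2 ratio of 0.95 and adding 50 CPM gave 0.74, both short of the call. Hk1, the housekeeping form, made 60.4% [53.1, 67.4] and 74.6% [69.0, 79.6] of hexokinase UMIs in endothelial-like cells, at 105 CPM [86.5, 126] and 130 CPM [113, 149]. Endothelial-like Hk2 was 64.1 and 28.8 CPM, and a measure of carried-over FAP RNA, made from Dcn (2190 and 1040 CPM in endothelial-like, 16900 and 8050 CPM in FAP-like cells), gave 54.6 and 30.1 CPM.

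**Figure D3:**
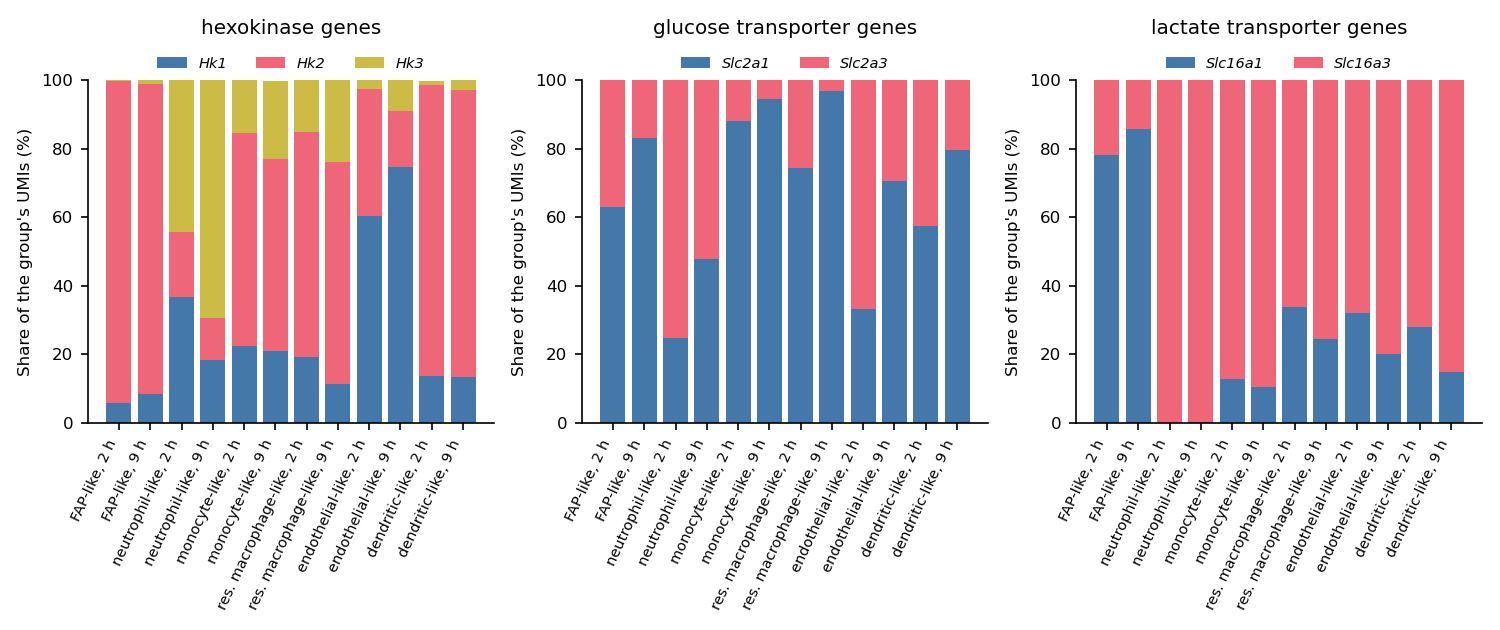
Share of UMIs (y axis, %) that each gene held of its isozyme group, for hexokinases, glucose transporters and lactate transporters, in 6 cell classes at 2 h and 9 h (x axis, 1 library per bar). Hk2 fills 94.1% and 90.8% of the FAP-like bars, Hk3 69.3% of the neutrophil-like bar at 9 h, and Slc16a3 nearly all of both neutrophil-like bars.

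Most other genes of upper glycolysis were level or lower at 9 h. Pfkp, the platelet form of phosphofructokinase, the committed step, was 140 CPM [134, 146] and 58.5 CPM [55.2, 62.0] in FAP-like cells, 2.39-fold [2.23, 2.57] lower. Its ratio was below 1 in each of the 6 classes. It reached its highest levels in dendritic-like cells, with 453 CPM [418, 491] and 251 CPM [219, 286]. Pfkp made at least 75.5% of phosphofructokinase UMIs in these classes, while the muscle form Pfkm stayed at or below 5.99 CPM and the liver form Pfkl at or below 35.7 CPM. Aldoa, the aldolase that cleaves the sugar, was 281 CPM [263, 299] and 145 CPM [137, 153] in neutrophil-like cells, 1.94-fold [1.78, 2.11] lower, and within cluster 1 it was 294 and 156 CPM, 1.89-fold [1.59, 2.27] lower. Gpi1, the isomerase before phosphofructokinase, was 237 CPM [221, 253] and 119 CPM [112, 127] in neutrophil-like cells but 216 and 197 CPM within cluster 1, a ratio of 0.914 [0.77, 1.08] whose interval holds 1. Both fell short of the call in the whole class.

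The same enzymes ran differently elsewhere. Aldoa was 197 CPM [179, 216] and 325 CPM [297, 355] in resident macrophage-like cells, and its intervals overlapped in monocyte-like (321 and 323 CPM) and endothelial-like cells (182 and 190 CPM). Gpi1 was 328 CPM [299, 360] and 266 CPM [244, 289] in monocyte-like cells and 84.9 and 125 CPM in FAP-like cells, a ratio of 1.48 [1.38, 1.58] in the latter. Tpi1, which interconverts the triose phosphates, was 113 CPM [99.6, 128] and 212 CPM [189, 236] in resident macrophage-like cells and 71.1 CPM [67.0, 75.4] and 45.9 CPM [42.9, 49.0] in FAP-like cells, so the direction differed, although the difference between classes was not tested. Aldoc, the brain form of aldolase, stayed at or below 15.7 CPM.

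Lower glycolysis was the role in which genes were most often higher at 9 h. In FAP-like cells 3 of its 8 genes were called higher and 0 lower, with a median log2 ratio of 0.87. In resident macrophage-like cells 5 of 6 measured genes were, with a median of 1.28, and in endothelial-like cells 4 of 6, with a median of 1.12. The 8 genes summed to 1115 and 2137 CPM in endothelial-like cells. Of this the S100a8 measure gave 110 and 319 CPM and the Dcn measure 117 and 272 CPM. The part of carried-over RNA in the endothelial-like calls was not tested. Of all genes measured in those 3 classes, 7.41%, 4.02% and 6.77% were higher, in the same order. The upper glycolysis genes of those 3 classes had medians of -0.46, 0.18 and -0.13, with 0 genes higher. In monocyte-like, dendritic-like and neutrophil-like cells the lower glycolysis medians were 0.55, -0.14 and -0.17, with no gene called.

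Ldha, the lactate dehydrogenase subunit that favours making lactate (chr7:46841475-46855627 on mm10), was 202 CPM [195, 209] at 2 h and 754 CPM [742, 767] at 9 h in FAP-like cells. Its ratio of 3.74 [3.6, 3.88] was the largest among the 36 genes in the classes where each was measured. FAP-like cells held 54.1% [52.9, 55.4] and 78.0% [77.4, 78.6] of all Ldha UMIs. With each cell thinned to 1000 UMIs, 16.6% [15, 18.3] and 45.2% [43.2, 47.3] of FAP-like cells had an Ldha UMI, and unthinned 65.9% and 89.4%. In neutrophil-like cells the thinned shares were 16.2% [14.4, 18.2] and 15.3% [14.2, 16.4] and the levels 203 CPM [188, 219] and 183 CPM [174, 192]. At 2 h the Ldha levels of FAP-like and neutrophil-like cells therefore overlapped, and at 9 h the FAP-like level was far above. Ldha was 193 and 376 CPM in resident macrophage-like cells (1.95 [1.72, 2.21]), 235 and 377 CPM in monocyte-like cells (1.6 [1.4, 1.83]) and 281 and 285 CPM in endothelial-like cells (1.01 [0.876, 1.17]). Ldhb, the subunit that favours the reverse reaction, was 5.49 CPM [4.41, 6.77] and 0.97 CPM [0.584, 1.52] in FAP-like cells, and Ldha made 97.4% and 99.9% of the pair.

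Pgk1 (phosphoglycerate kinase, the first ATP-yielding step) and Pgam1 (phosphoglycerate mutase, which follows it) were called higher in the most classes, 3 each. In FAP-like cells Pgk1 was 75.1 CPM [70.9, 79.4] and 188 CPM [182, 194], a ratio of 2.5 [2.35, 2.68]. In resident macrophage-like cells Pgk1 was 115 CPM [102, 130] and 348 CPM [320, 379], a ratio of 3.02 [2.6, 3.52], with 6.52 and 8.35 CPM by the Dcn measure. In endothelial-like cells Pgk1 was 79.4 CPM [63.7, 97.8] and 203 CPM [181, 226], a ratio of 2.55 [2.01, 3.27], with 7.83 and 13.2 CPM by the S100a8 measure and 9.71 and 24.2 CPM by the Dcn measure. Neutrophil-like cells differed, with Pgk1 at 197 CPM [182, 212] and 107 CPM [100, 114], 1.84-fold [1.66, 2.03] lower. At 2 h the Pgk1 level of neutrophil-like cells lay above that of FAP-like cells and at 9 h below it, with no overlap of intervals at either time. Pgam1 had ratios of 2.11 [1.99, 2.23] in FAP-like (105 and 221 CPM), 2.71 [2.34, 3.14] in resident macrophage-like (123 and 334 CPM) and 2.31 [1.77, 3.06] in endothelial-like cells (64.1 and 148 CPM), against 364 and 252 CPM in neutrophil-like cells. The part of carried-over RNA in the endothelial-like Pgam1 ratio was not tested. With 50 CPM added the Pgam1 call was lost in FAP-like (log2 ratio 0.81) and endothelial-like cells (0.8). At Leiden resolution 2 it was lost in resident macrophage-like cells (0.97).

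Gapdh, the dehydrogenase that makes NADH and is often taken as a constant reference gene, was 591 CPM [560, 624] and 1374 CPM [1316, 1433] in resident macrophage-like cells, a ratio of 2.32 [2.17, 2.49], with 31.1 and 28.8 CPM by the Dcn measure. In endothelial-like cells Gapdh was 476 CPM [437, 519] and 1060 CPM [1010, 1112], a ratio of 2.22 [2.02, 2.46], with 41.3 and 111 CPM by the S100a8 measure and 46.3 and 83.5 CPM by the Dcn measure. Its ratio was 1.82 [1.76, 1.87] in FAP-like (358 and 650 CPM), 1.37 [1.29, 1.46] in monocyte-like (1076 and 1475 CPM), 0.868 [0.834, 0.903] in neutrophil-like (1036 and 899 CPM) and 0.992 [0.905, 1.09] in dendritic-like cells (871 and 864 CPM). Only the dendritic-like interval holds 1, and Gapdh differed between the libraries beyond counting error in the other 5 classes. Within neutrophil-like cluster 1, however, Gapdh was 1037 and 1014 CPM, a ratio of 0.978 [0.907, 1.05] whose interval holds 1. Pkm, pyruvate kinase, the last ATP-yielding step, was 304 CPM [282, 327] and 988 CPM [939, 1038] in resident macrophage-like cells, a ratio of 3.25 [2.97, 3.56], with 10.8 and 10.7 CPM by the Dcn measure. In endothelial-like cells Pkm was 164 CPM [141, 190] and 383 CPM [353, 415], with 31.9 and 119 CPM by the S100a8 measure. Pkm had a ratio above 1 in each of the 6 classes, 1.21 [1.16, 1.27] in neutrophil-like and 1.18 [1.04, 1.35] in dendritic-like cells among them. Dendritic-like cells held S100a8 at 491 and 1710 CPM and Dcn at 51.6 and 648 CPM. The part of carried-over RNA in their Pkm ratio was not tested. Eno1, the enolase between mutase and kinase, was 96.8 CPM [84.4, 110] and 220 CPM [197, 245] in resident macrophage-like cells. Its call there was lost when cell levels were averaged, cells thinned or 50 CPM added (lowest log2 ratio 0.52). Eno2, the neuronal form, stayed at or below 5.61 CPM.

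**Figure D4:**
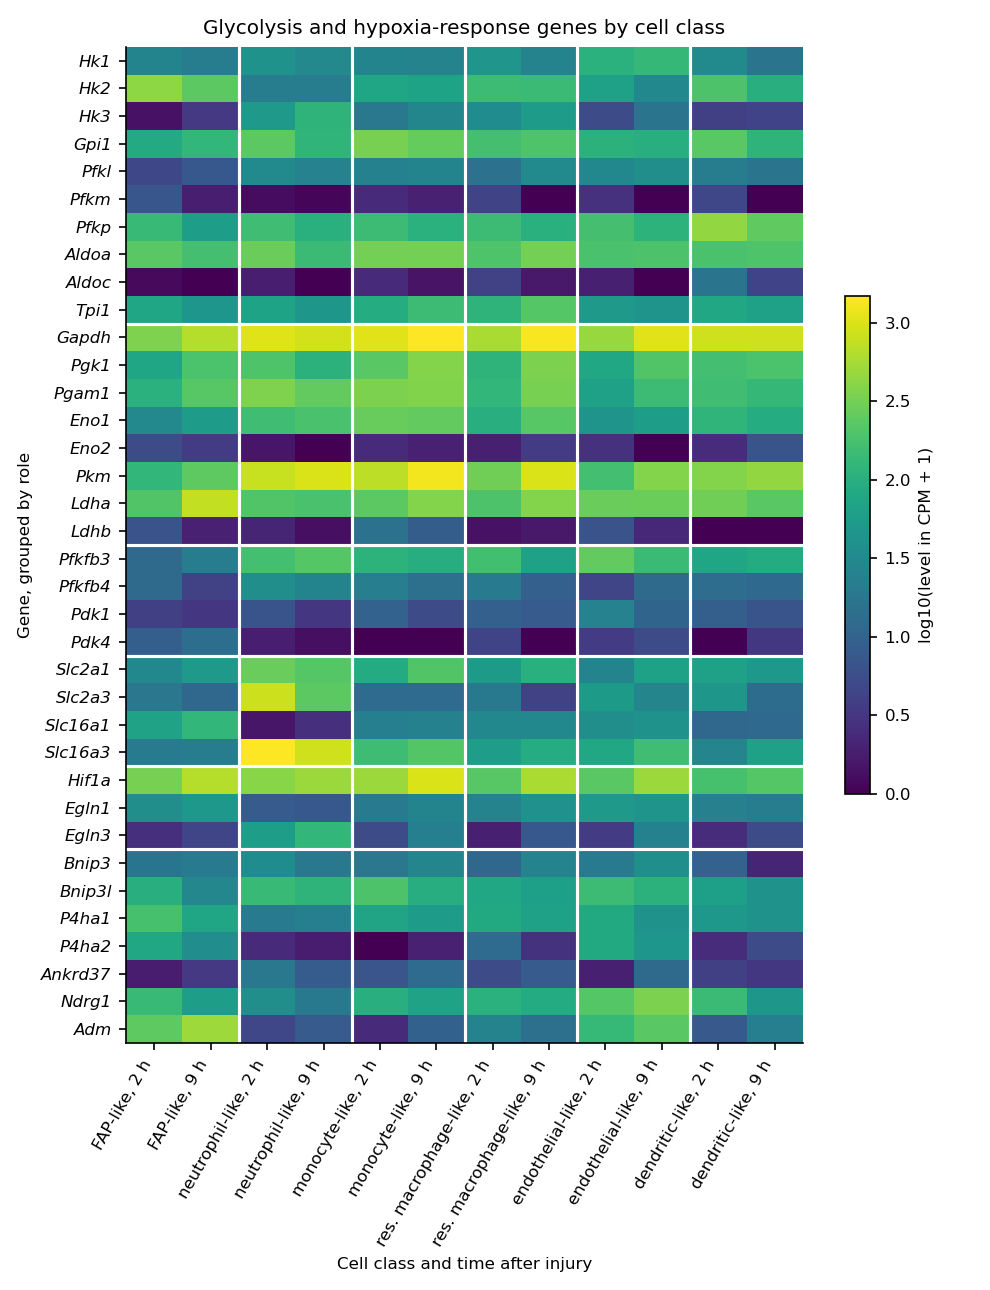
Levels of the 36 genes (rows, grouped by role) in 6 cell classes at 2 h and 9 h (columns), coloured by log10 of the level in CPM plus 1. Gapdh, Pkm and Hif1a are bright in each class, Slc16a3 and Slc2a3 are brightest in the neutrophil-like columns, Hk2 and Adm in the FAP-like columns, and Pfkm, Eno2 and Ldhb are dark.

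Among the regulators, Pfkfb3 makes the sugar bisphosphate that switches phosphofructokinase on. In resident macrophage-like cells it was 163 CPM [147, 180] and 64.1 CPM [52.1, 78.1], 2.54-fold [2.03, 3.2] lower, opposite in direction to the lower glycolysis genes of the same cells. In endothelial-like cells Pfkfb3 was 252 CPM [223, 283] and 145 CPM [127, 165], 1.73-fold [1.45, 2.07] lower. In neutrophil-like cells it was 166 CPM [153, 180] and 215 CPM [205, 225], a ratio of 1.29 [1.18, 1.42]. Within cluster 1 Pfkfb3 was 159 and 181 CPM, a ratio of 1.14 [0.945, 1.37] whose interval holds 1. The Pfkfb3 intervals overlapped in monocyte-like (110 and 93.3 CPM) and dendritic-like cells (71.8 and 87.5 CPM), and FAP-like cells had 11.5 and 20.4 CPM. Neutrophil-like cells held 34.4% and 63.0% of its UMIs. Pfkfb4, an enzyme of the same family, was 36.2 and 25.8 CPM in neutrophil-like and 11.5 CPM [9.89, 13.3] and 3.22 CPM [2.47, 4.12] in FAP-like cells. Pdk1 and Pdk4 switch off pyruvate dehydrogenase and so keep pyruvate out of the citrate cycle. Pdk1 stayed at or below 24.4 CPM in the 6 classes. Pdk4 was 8.12 and 13.1 CPM in FAP-like cells, and 188 of its 257 UMIs there at 9 h came from cluster 11, described below.

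Hif1a had a ratio above 1 in each of the 6 classes. In resident macrophage-like cells it was 221 CPM [202, 241] and 587 CPM [550, 627], a ratio of 2.65 [2.38, 2.97], with 28.6 and 29.4 CPM by the Dcn measure. In endothelial-like cells Hif1a was 228 CPM [201, 258] and 486 CPM [452, 521], a ratio of 2.13 [1.85, 2.46], with 16.1 and 61.4 CPM by the S100a8 measure and 42.7 and 85 CPM by the Dcn measure. FAP-like cells had 330 CPM [321, 339] and 661 CPM [650, 673] and monocyte-like cells 489 CPM [452, 527] and 973 CPM [931, 1016]. Both fell just short of the call, at a log2 ratio of 0.98. With cells thinned to 1000 UMIs the Hif1a calls were lost in resident macrophage-like cells (log2 ratio 0.97) and endothelial-like cells (0.98), and in the latter also with 50 CPM added (0.95). In neutrophil-like cells Hif1a was 403 CPM [382, 425] and 499 CPM [484, 514], a ratio of 1.24 [1.16, 1.32]. In dendritic-like cells it was 176 and 216 CPM, a ratio of 1.23 [1.01, 1.49], with 1.0 and 53.2 CPM by the Dcn measure. At 9 h that measure exceeded the difference between the dendritic-like levels. The part of carried-over RNA in the dendritic-like Hif1a ratio was not tested. With cells thinned to 1000 UMIs, 25.8% [23.9, 27.8] and 42.6% [40.6, 44.6] of FAP-like cells and 30.9% [28.6, 33.3] and 37.5% [36, 39.1] of neutrophil-like cells had a Hif1a UMI. Unthinned, these shares were 72.8% and 85.6% in FAP-like and 49.4% and 53.4% in neutrophil-like cells.

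The hydroxylases that mark HIF for destruction were divided by class. Egln3, itself a HIF target, had 81.0% [75.6, 85.7] and 85.7% [83.6, 87.7] of its UMIs in neutrophil-like cells. Its level there was 58.5 CPM [50.8, 67.1] and 123 CPM [116, 131], a ratio of 2.11 [1.81, 2.46] that fell just short of the call at a log2 ratio of 0.96. Within cluster 1 Egln3 was 70.0 and 71.4 CPM, a ratio of 1.02 [0.758, 1.36]. In monocyte-like cells Egln3 was 4.43 and 22.1 CPM on 6 and 46 UMIs, with 1.3 and 7.58 CPM by the S100a8 measure. In endothelial-like cells it was 2.71 and 23.8 CPM on 3 and 38 UMIs, with 2.33 and 15.2 CPM by that measure. Egln1, the main oxygen sensor of most tissues, was 36 CPM [33.1, 39.0] and 48.6 CPM [45.5, 51.7] in FAP-like cells, which held 68.3% and 75.8% of its UMIs, and 7.13 and 6.53 CPM in neutrophil-like cells.

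The remaining HIF targets did not move as a block, and in FAP-like cells 1 of 6 measured genes was higher and 3 were lower. Of all genes measured in that class 7.41% were higher and 9.3% lower. Adm encodes adrenomedullin, a secreted peptide that widens blood vessels. FAP-like cells held 89.8% [88.8, 90.7] and 92.7% [92.2, 93.2] of its UMIs, at 239 CPM [232, 247] and 502 CPM [492, 512], a ratio of 2.1 [2.02, 2.18]. Thinned to 1000 UMIs, 15.6% [14.0, 17.2] and 26.4% [24.6, 28.2] of FAP-like cells had an Adm UMI, against 0.195% and 0.68% of neutrophil-like cells. Unthinned, the shares were 44.5% and 61.5% in FAP-like and 0.675% and 1.21% in neutrophil-like cells. The FAP-like call of Adm was lost in 4 alternatives: the log2 ratio was 0.89 without the cells of cluster 11, 0.93 with cells thinned to 1000 UMIs, 0.93 with 50 CPM added and 0.99 for the mean of cell levels. In endothelial-like cells Adm was 131 CPM [110, 154] and 226 CPM [204, 251], with 31.0 and 64.5 CPM by the Dcn measure.

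P4ha1 and P4ha2 encode the catalytic subunits of collagen prolyl hydroxylase, which stabilises the collagen helix. In FAP-like cells P4ha1 was 177 CPM [170, 183] and 72.5 CPM [68.8, 76.4], 2.44-fold [2.28, 2.6] lower. P4ha2 was 78.5 CPM [74.2, 83.0] and 34.8 CPM [32.3, 37.5], 2.25-fold [2.05, 2.48] lower and just short of the call at a log2 ratio of -0.98. Both had the same direction in endothelial-like cells, P4ha1 with 83.9 CPM [67.7, 103] and 42.0 CPM [32.6, 53.4] and P4ha2 with 83.0 CPM [66.9, 102] and 45.1 CPM [35.3, 56.9]. Bnip3l, the mitophagy receptor NIX, was 97.6 CPM [92.8, 103] and 28.2 CPM [25.9, 30.6] in FAP-like cells, 3.46-fold [3.14, 3.82] lower, and had a ratio below 1 in each of the 6 classes. In monocyte-like cells Bnip3l was 190 CPM [168, 215] and 94.3 CPM [81.5, 108], and in neutrophil-like cells 139 CPM [127, 152] and 113 CPM [105, 120]. Within neutrophil-like cluster 1 Bnip3l was 132 and 146 CPM, a ratio of 1.11 [0.899, 1.36] whose interval holds 1. Bnip3, its relative, was 16.0 CPM [14.1, 18.1] and 19.5 CPM [17.6, 21.6] in FAP-like cells and 34.2 CPM [28.4, 40.9] and 17.5 CPM [14.8, 20.6] in neutrophil-like cells.

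Ndrg1, a stress-response gene raised by hypoxia in many cells, differed in direction between classes, although that difference was not tested. It was 139 CPM [134, 145] and 59.1 CPM [55.7, 62.6] in FAP-like cells, 2.36-fold [2.2, 2.54] lower, and 142 CPM [123, 164] and 46.0 CPM [33.0, 62.4] in dendritic-like cells, 3.09-fold [2.2, 4.44] lower. In endothelial-like cells Ndrg1 was 217 CPM [190, 246] and 351 CPM [322, 381], a ratio of 1.62 [1.39, 1.89], and they held 6.76% and 23.8% of its UMIs. In resident macrophage-like cells its intervals overlapped, at 104 CPM [91.4, 118] and 89.4 CPM [75.1, 106]. Without cluster 11 the FAP-like log2 ratio of Ndrg1 was -0.96, short of the call. Ankrd37 stayed at or below 17.4 CPM in the 6 classes.

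FAP-like cells at 9 h were not uniform in these genes. They lay in cluster 2 (1585 cells, led by Cxcl5 and Ccl2), cluster 11 (514 cells, led by the acute-phase genes Saa1 and Saa2) and cluster 14 (232 cells, with Krtdap among its leading genes). Clusters were formed from all variable genes, so these values are a description. Ldha was 631 CPM [617, 644] in cluster 2, 1265 CPM [1230, 1300] in cluster 11 and 635 CPM [602, 670] in cluster 14. Each stood above cluster 3 (221 CPM [212, 230]) and cluster 7 (158 CPM [147, 169]), which held most FAP-like cells at 2 h. Hif1a was 797 CPM [782, 812] in cluster 2, 311 CPM [293, 329] in cluster 11 and 499 CPM [470, 530] in cluster 14, and 305 and 382 CPM in clusters 3 and 7. The cluster with the highest Ldha level thus had a Hif1a level within the range of the 2 h clusters. Cluster 11 also held Bnip3 at 60.9 CPM [53.4, 69.1] against 6.83 CPM [5.5, 8.39] in cluster 2, and Pdk4 at 48.1 CPM [41.5, 55.5] against 4.13 CPM [3.11, 5.38]. Adm was 429, 695 and 624 CPM in clusters 2, 11 and 14. Cluster 11 was the lowest of them for Slc2a1 (61.3, 24.3 and 40.6 CPM), P4ha2 (43.0, 10.5 and 27.1 CPM) and Ndrg1 (68.9, 27.1 and 50.5 CPM). At 2 h cluster 7, led by Sema3c and Pi16, had more Pfkp than cluster 3, with 196 CPM [183, 209] against 116 CPM [109, 122].

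**Figure D5:**
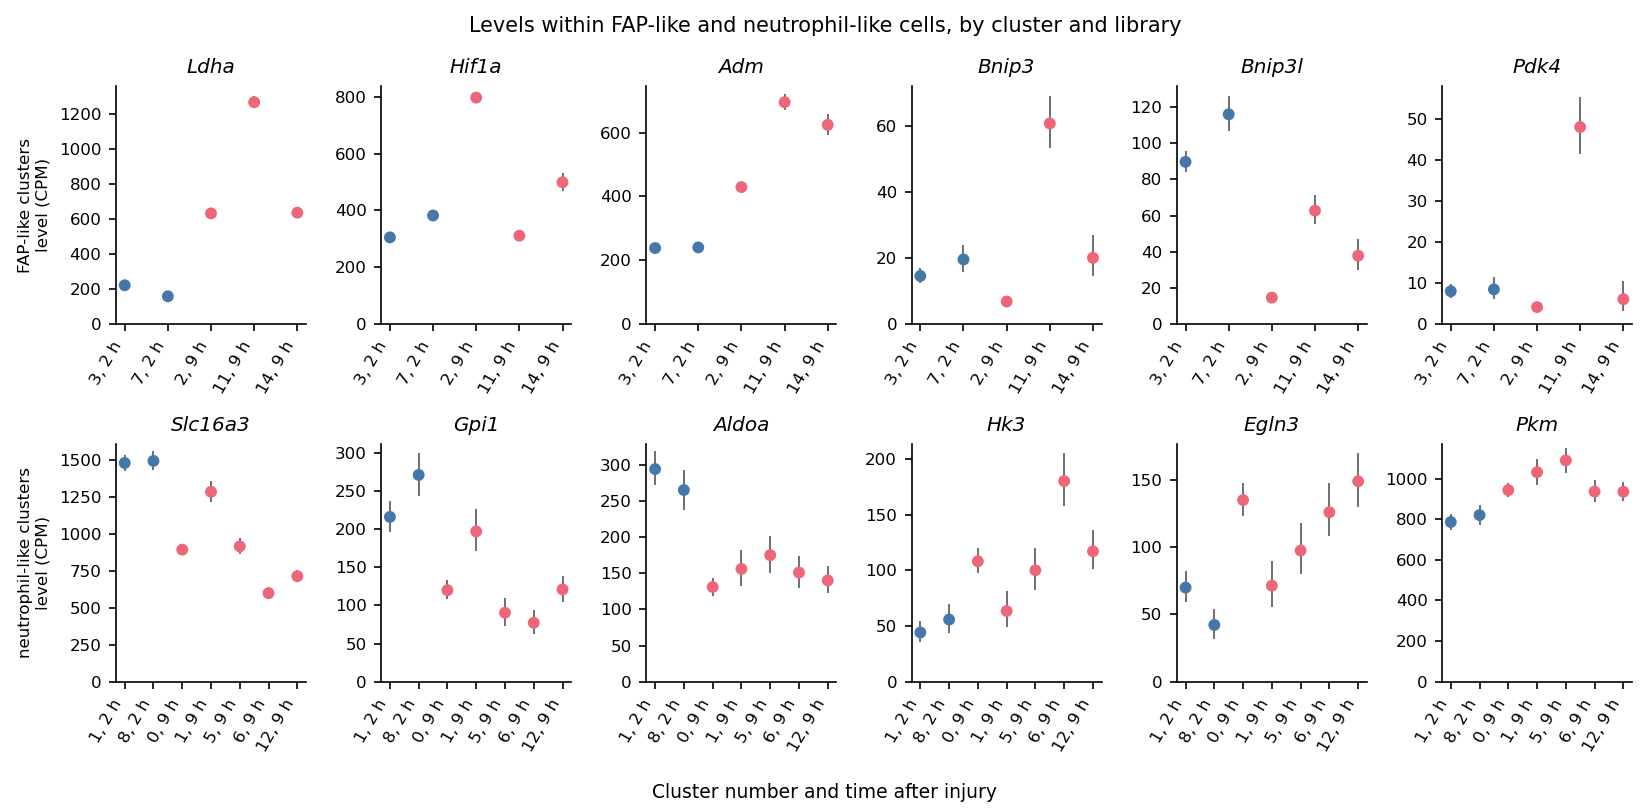
Levels (CPM, y axes from 0) of 6 genes in FAP-like clusters (top) and 6 genes in neutrophil-like clusters (bottom), by cluster number and time (x axis, 2 h blue, 9 h red), with exact 95% Poisson intervals. In the top row cluster 11 stands highest for Ldha, Bnip3 and Pdk4 and lowest of the 9 h clusters for Hif1a. In the bottom row cluster 1 appears at both times.

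Smaller classes gave levels on few UMIs. In satellite-like cells (muscle stem cells, 81 and 69 cells) Ldha was 142 CPM [106, 188] and 420 CPM [346, 506] and Ndrg1 344 CPM [286, 411] and 114 CPM [76.6, 162]. In tenocyte-like cells (80 and 62 cells) Ldha was 204 CPM [174, 239] and 554 CPM [489, 625], Adm 206 CPM [175, 241] and 455 CPM [396, 520] and P4ha1 220 CPM [188, 256] and 63.2 CPM [42.6, 90.2]. These directions were those of FAP-like cells. The Hif1a intervals of tenocyte-like cells overlapped, at 467 CPM [420, 518] and 438 CPM [380, 502].

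Neighbouring genes of these pathways, 87 genes in 6 lists, gave the setting. Among the further HIF targets in FAP-like cells, values ran in both directions. Lox, which crosslinks collagen, was 221 and 737 CPM (3.33 [3.21, 3.46]), while its relative Loxl2 was 268 and 88.7 CPM (3.02-fold [2.86, 3.2] lower). Vegfa, the vessel growth factor, was 50.1 and 190 CPM in resident macrophage-like cells (3.78 [3.04, 4.74]) and 54.6 and 159 CPM in monocyte-like cells (2.91 [2.25, 3.79]). It was not higher in FAP-like cells, with 182 and 151 CPM (0.828 [0.787, 0.872]), and in neutrophil-like cells, with 85.6 and 78.0 CPM, the interval of the ratio held 1 (0.912 [0.794, 1.05]). None of 9 measured further oxygen-sensing genes was called in FAP-like cells, where 7.41% of all genes were higher and 9.3% lower. Epas1, the HIF-2 alpha subunit known from endothelium, was 1093 and 539 CPM in endothelial-like cells (2.03-fold [1.85, 2.21] lower), while Hif1a was higher there. Of the pentose phosphate genes, which branch off the first sugar phosphate of glycolysis to make NADPH, 2 of 5 measured were lower in neutrophil-like cells, Taldo1 at 828 and 247 CPM and Tkt at 83.0 and 27.6 CPM, where 5.88% of all genes were lower. Of 9 measured glycogen genes 3 were lower in FAP-like cells, among them Ugp2 at 196 and 67.8 CPM, where 9.3% of all genes were lower. Of 19 measured genes of pyruvate entry and the citrate cycle 2 were higher in FAP-like cells, Mdh2 at 78.7 and 209 CPM and Idh3a at 25.7 and 78.5 CPM, a share near the 7.41% of all genes that were higher. The further glycolysis isozymes had 4 measured genes in FAP-like and 2 in neutrophil-like cells, with none called.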

How the data were processed

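The deposited count matrices hold UMI counts per gene and cell, which the authors deposited unnormalized. The submitters' processing notes name Cell Ranger 5.0.0 and the mm10 build. Cells with under 200 genes or 500 UMIs or over 20% mitochondrial UMIs were left out, which kept 4900 of 5729 barcodes at 2 h (27598413 UMIs) and 8147 of 8790 at 9 h (35127600 UMIs). Scrublet called 6 and 0 doublets, under 0.5%, so its calls were set aside and no doublet was removed. With Scanpy 1.11.5, cells of both libraries were clustered together without batch correction (2000 variable genes, 30 components, 15 neighbours, Leiden resolution 1), and clusters were named from 16 marker lists, needing at least 3 detected markers. Of the 36 genes, 6 were among the variable genes (Adm, Ankrd37, Egln3, Hk3, Pfkfb3 and Slc2a3). Classes with at least 100 cells in each library were compared.

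Levels carry exact Poisson intervals, ratios exact conditional binomial intervals and shares exact Clopper-Pearson intervals, all at 95%. PCR copies were removed by UMI, but the intervals do not cover variation between mice. With 1 library per time no test was made. All 36 genes were accounted for in each class. Named with values were those of at least 50 CPM in 1 library and a 2-fold difference, and the highest of each role in each class, with further genes given as values. The genes and lists were chosen with earlier results of these data known. The carry-over measure multiplies the gene's level in neutrophil-like (or FAP-like) cells by the S100a8 (or Dcn) level of the class over that of the source class, so it is an upper measure where the class makes some S100a8 or Dcn itself. The ratio calculation was tested on simulated data. Alternatives were another pseudocount (1 or 50 CPM), TMM scaling (edgeR 4.0.16), other clustering resolutions, cell filters, thinned cells, the mean of cell levels, and leaving out cells. One result on the further HIF targets is not reported here.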

Additional observations from a re-analysis of the deposited data

How the results depend on the processing

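No paired analysis was possible because each time had 1 library. Over 26 pairs of a named gene and a class, all 319 alternative values kept the sign and 289 stayed past 2-fold, and 8 pairs stayed past it in every alternative run. The counts of genes called moved by over 1.5 times in 41 of 146 values and are given here as higher and lower counts. With 1 CPM added in place of 10, 8 were lower in FAP-like cells, 2 higher and 3 lower in neutrophil-like, 1 lower in monocyte-like, 7 lower in resident macrophage-like, 11 higher and 5 lower in endothelial-like, and 6 higher and 5 lower in dendritic-like cells. With 50 CPM added, 1 was higher and 0 lower in FAP-like cells, 0 higher in neutrophil-like and monocyte-like, 0 lower in resident macrophage-like, 2 higher in endothelial-like, and 0 higher and 1 lower in dendritic-like cells. With cells thinned to 1000 UMIs, 2 were higher in neutrophil-like, 5 higher and 1 lower in monocyte-like, 1 lower in resident macrophage-like, 12 higher and 2 lower in endothelial-like and 6 lower in dendritic-like cells. Among genes of at least 100 UMIs alone, 1 was higher in monocyte-like, 1 lower in resident macrophage-like, and 0 higher and 1 lower in dendritic-like cells. A 10% mitochondrial limit, like leaving out the highest doublet scores, gave 1 lower in resident macrophage-like, 1 lower in endothelial-like and 0 higher in dendritic-like cells. The mean of cell levels gave 1 lower in endothelial-like and 0 higher in dendritic-like cells. At Leiden resolution 2 there were 0 higher in neutrophil-like and 2 higher in dendritic-like cells, and with TMM scaling 2 higher in neutrophil-like cells. TMM moved the median of all genes by 0.108 on the log2 scale in monocyte-like cells and less in the other classes. Clustering without the 36 genes gave 2 higher in dendritic-like cells, and leaving out barcodes found in both libraries gave 0. The alternatives without cluster 11, without shared barcodes and with clustering that left out the 36 genes were chosen after seeing the data. Leaving out FAP-like clusters with under 50 cells in 1 library left no cells and was not run. The cause of these shifts was not tested. Depth limits the calls that rest on under 100 UMIs over both libraries: Slc16a3 and Slc2a3 in dendritic-like, Slc2a3 in resident macrophage-like, and Egln3 in monocyte-like and endothelial-like cells.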
